A study of Mus musculus with 4 samples.

Results

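These are the messenger RNAs of 37 genes of ribosome biogenesis and snoRNP assembly, measured in the mouse macrophage-like cell line RAW264.7 with the expression of Ruvbl2 targeted by siRNA. They were chosen by gene name and role, by a rule that uses no measured value but was written with earlier results of these data known: nucleolar genes that make, modify and assemble ribosomal RNA, together with genes that build small nucleolar ribonucleoproteins (snoRNPs). All 37 had a probe on the array, out of 22911 genes that could be named there. They comprised 3 core proteins of box C/D snoRNPs, 3 box C/D assembly factors, 6 genes of box H/ACA snoRNPs, the pair Ncl and Npm1, 10 factors of the small ribosomal subunit, 8 of the large subunit and 5 genes of RNA polymerase I transcription.

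The series asks what RUVBL2 does for proinflammatory gene expression after lipopolysaccharide (LPS), a bacterial cell wall component that macrophages sense through Toll-like receptor 4. There were 4 groups with 1 array each: cells with a pool of siRNAs against Ruvbl2 and LPS, cells with a control siRNA and LPS, cells with the Ruvbl2 siRNA pool and DMSO, and cells with the control siRNA and DMSO. The sample titles shorten the name of the siRNA's target, and the series title gives it in full. All cells had been transfected, by electroporation or with a lipid reagent without a record of which, and were analysed 2 days later. No source used here gives the dose or the time of LPS. All cells were of 1 line, a virus-transformed mouse line, and siRNA lowers a messenger RNA without removing the gene.

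Ribosomes are built in the nucleolus, where RNA polymerase I transcribes the long ribosomal RNA precursor. Box C/D snoRNPs guide the methylation of this precursor, box H/ACA snoRNPs guide the change of uridine to pseudouridine, and the U3 snoRNP, a box C/D particle, takes part in its cleavage. RUVBL1 and RUVBL2 are partner ATPases of a chaperone complex, R2TP, which loads NOP58 and other core proteins onto the box C/D particles with the help of zinc finger HIT proteins and NUFIP1.

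A level here is the log2 of the probe's processed signal minus the log2 of the array's 75th percentile, so that 0 is the 75th percentile of that array. Each gene is given by its brightest probe, and levels of different probes cannot be compared as amounts of RNA. Since each group is a single array, no replicate error exists, no test was made and no p-value is given. The only error available is technical. It comes from repeat prints of the same probe within an array and reads, as the SD of a log2 difference, 0.06 to 0.07 for levels of 2 or more and 0.11 to 0.13 for levels between 0 and 2. In RNA from a whole culture, fewer cells of a type and less RNA per cell cannot be told apart.

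The arrays differed in brightness, most of all the DMSO pair. Their 75th percentile of the signal was 331 with Ruvbl2 siRNA, the lowest of the 4 arrays, and 456 with control siRNA, the highest. In LPS it was 407 with Ruvbl2 siRNA and 395 with control siRNA. Between 54.1% and 55.0% of RNA spots were well above background and none was saturated. Each siRNA had a slide row of its own, and effects of row and of siRNA cannot be told apart. The E1A spike-ins, control RNAs added for labelling, had a median level of 3.95 on the Ruvbl2 siRNA DMSO array, which stood apart by this measure, and of 3.57 to 3.64 on the other 3 arrays. Of 10 macrophage markers, 9 were well above background on all 4 arrays, with a summed level between 9.90 and 10.2. Of 5 T cell markers, 4 were well above background on every array, Cd3e at levels of 0.06 to 0.23. Of 5 fibroblast markers 1 was well above background on all 4 arrays and 4, with Col1a1, on none. Of 4 epithelial markers 1 was so on the control siRNA DMSO array alone and 3, with Epcam, on none. The summed level of 6 mast cell and neutrophil markers was 1.06 with Ruvbl2 siRNA and 0.90 with control siRNA in LPS. In DMSO it was -0.04 and -0.43 in the same order. With control siRNA, 2 of these markers could be compared between LPS and DMSO. Of these, 1 differed by -0.12. The other differed by at least 5.40, a bound, since it was well above background with LPS only. With Ruvbl2 siRNA 3 could, of which 1 was higher, by 2.95, while their median was -0.24 and the lowest -0.33. Of the 2 lower values, 1 is a bound, from a marker well above background with DMSO only. The part of such cells in the results was not tested.

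Ruvbl2 itself, the gene targeted, was modestly lower with its siRNA. Its level was 4.51 with Ruvbl2 siRNA and 4.92 with control siRNA in LPS, a log2 difference of -0.40, and 4.67 with Ruvbl2 siRNA and 5.01 with control siRNA in DMSO, a difference of -0.34. A dimmer probe gave -0.12 in LPS and -0.55 in DMSO. Ruvbl1, the partner ATPase, differed by 0.14 in LPS and by 0.00 in DMSO. With spike-in centring the DMSO differences were -0.64 for Ruvbl2 and -0.30 for Ruvbl1.

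Each of the 37 genes was detected, that is well above background, on all 4 arrays, and lay above the 75th percentile on each of them. Of the 22911 named genes, 12471 were detected on all 4 arrays. The percentile is taken over all probes, detected or not. Of all genes detected on at least 1 array, 61.9% to 62.3% lay above it, depending on the array. The median level of the 37 was 4.85 with Ruvbl2 siRNA in LPS, 4.56 with control siRNA in LPS, 4.66 with Ruvbl2 siRNA in DMSO and 4.56 with control siRNA in DMSO. The medians of all genes well above background on at least 1 array lay between 1.24 and 1.27. Among the 37, the lowest level on any array was 0.11, that of Znhit3 on the Ruvbl2 siRNA DMSO array, and the highest 7.88, that of Fbl on the same array. Within a gene, the 4 levels spanned between 0.14 for Nob1 and 0.72 for Wdr43. The order of the arrays was uneven: 23 genes had their highest level on the Ruvbl2 siRNA LPS array, and 0 had their lowest there. Of all genes detected on all 4 arrays, 20.3% were highest and 21.3% lowest on that array. The lowest level fell on the control siRNA LPS array for 15 of the 37, on the control siRNA DMSO array for 15 and on the Ruvbl2 siRNA DMSO array for 7. Of all detected genes, 32.1%, 24.5% and 22.1% were lowest on these arrays.

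**Figure D1:**
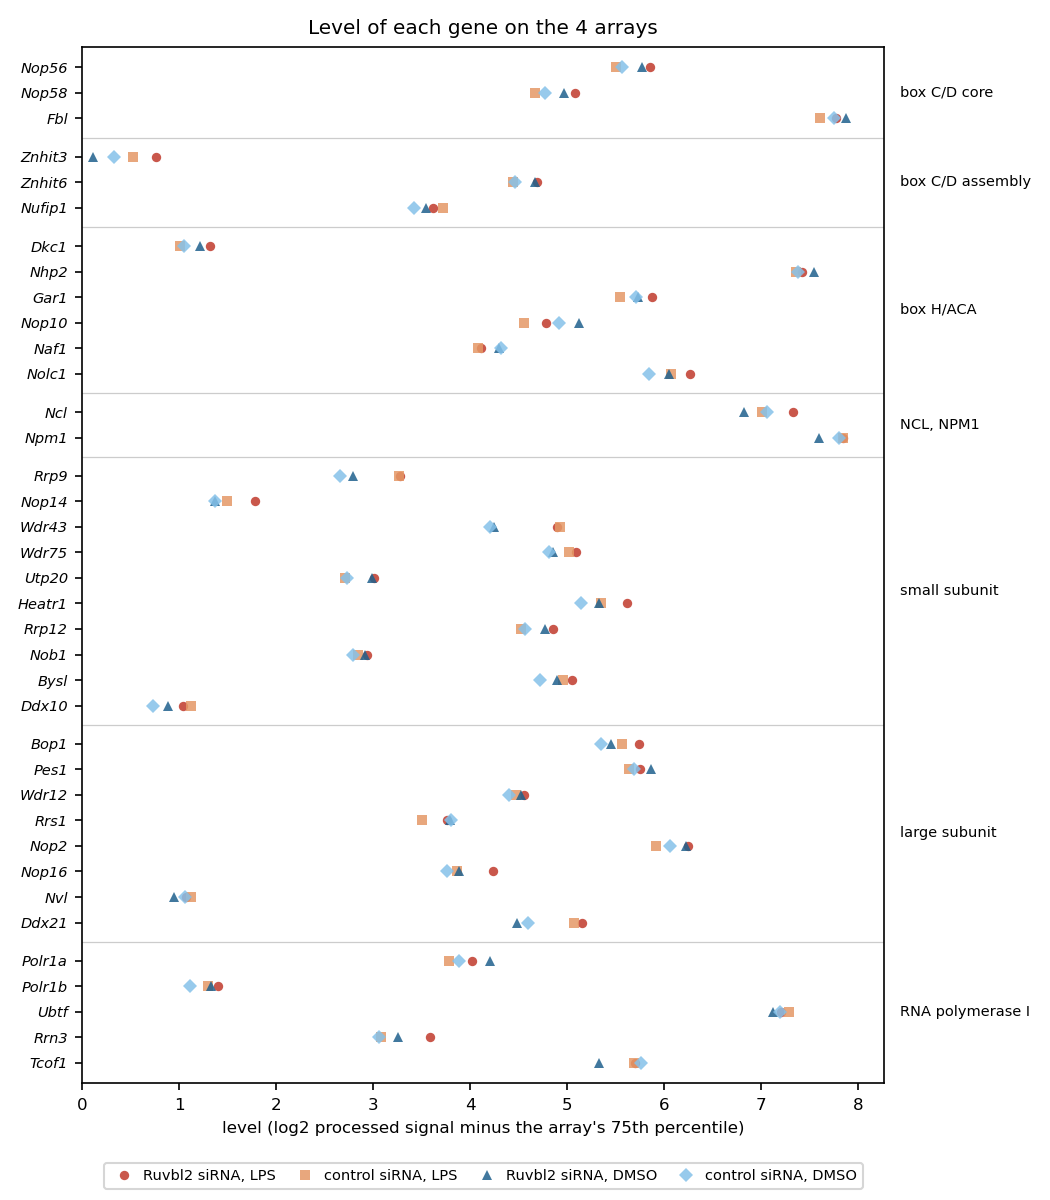
Level of each of the 37 genes on the 4 arrays, in log2 units relative to the array's 75th percentile, with 1 point per array and the genes grouped by role. All points lie above 0, and the points of the Ruvbl2 siRNA LPS array are the rightmost for 23 genes.

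In cells given LPS, the ribosome biogenesis genes stood a little higher with Ruvbl2 siRNA than with control siRNA, and most of them shared that direction. Of the 37, 31 had a difference above 0, against 50.8% of the 13472 genes compared. Their median difference was 0.18 on the log2 scale and that of all genes 0.00. By the brightest probe, the largest was 0.50 for Rrn3 and the lowest -0.10 for Nufip1. Read so, none reached 1, a 2-fold difference, in either direction (1.06% of all genes did as higher and 1.46% as lower). A dimmer probe of Ncl passed it. Rrn3 alone reached 0.5, a 1.41-fold difference, against 5.41% of all genes as higher, and 0 were lower by 0.5, against 6.94%. By a looser rule, 21 were higher by more than 2 technical SDs and 0 were lower by as much, where 23.1% and 20.7% of all genes were. That cut is smaller for bright genes. The SD here was 0.06 at levels of 2 or more and 0.26 between -4 and -2. Counts by technical SD, here and below, therefore set bright genes beside genes that face a larger cut. The share past 0.5 was thus no larger than among all genes, while the direction was uneven. Shares at 0.5 and 1, here and below, also include dim genes. Of genes detected on all 4 arrays, 3813 had a mean level below 0, where none of the 37 lay. Among 10719 genes with a level of -2 or more on the brighter array, 41 were higher by 1 and 112 lower. The share past 0.5 was not counted for genes of like brightness. Genes of like brightness mostly leaned upward too, though less: of 1859 genes with a mean level between 4 and 6, 60.2% lay above 0 with a median of 0.05, against 15 of 16 of the biogenesis genes in that range. Between 6 and 8 it was 56.6% against 5 of 7, between 2 and 4 54.1% against 7 of 8, and between 0 and 2 49.1% against 4 of 6.

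The box C/D core proteins, the clients of RUVBL2 and its partner, were all higher in LPS with Ruvbl2 siRNA. Nop58, a scaffold protein of the particle, had a level of 5.08 with Ruvbl2 siRNA and 4.66 with control siRNA, a difference of 0.42, or 134% of control. Nop56, its partner scaffold, had 5.85 with Ruvbl2 siRNA and 5.50 with control siRNA, a difference of 0.35. Fbl, fibrillarin, the methyltransferase of the particle, had 7.77 with Ruvbl2 siRNA and 7.60 with control siRNA, a difference of 0.17. All 3 exceeded 2 technical SDs. The other 3 probes of Nop58 gave 0.36 to 0.38, close to the brightest, and the other probe of Nop56 gave 0.14.

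The factors that assemble box C/D particles were split in LPS. Znhit6, a zinc finger HIT protein, had a level of 4.69 with Ruvbl2 siRNA and 4.44 with control siRNA. Znhit3, of the same family, had 0.76 with Ruvbl2 siRNA and 0.52 with control siRNA, its difference of 0.24 matching the 0.25 of Znhit6. Nufip1, the adaptor that tethers ZNHIT3 and the core protein SNU13, had 3.61 with Ruvbl2 siRNA and 3.71 with control siRNA, a difference of -0.10 below 2 technical SDs.

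All 6 genes of box H/ACA particles had a difference above 0 in LPS. Gar1, a core protein, had a level of 5.87 with Ruvbl2 siRNA and 5.55 with control siRNA, a difference of 0.33. Dkc1, the pseudouridine synthase dyskerin, differed by 0.31, or 124% of control. Of the remaining core proteins, Nop10 differed by 0.22 and Nhp2 by 0.06. Nolc1, a nucleolar chaperone of snoRNPs, differed by 0.20, and Naf1, the assembly factor that GAR1 replaces in the mature particle, by 0.03. Second probes of Gar1 and Dkc1, both dimmer, gave 0.74 and 0.40.

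Of the 2 abundant nucleolar phosphoproteins, nucleolin was higher in LPS and nucleophosmin was level. Ncl had 7.33 with Ruvbl2 siRNA and 7.01 with control siRNA, a difference of 0.32. Npm1 had 7.84 with Ruvbl2 siRNA and 7.84 with control siRNA, a difference of -0.00, and its other 2 probes gave 0.01 each.

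Among the factors of the small subunit, 8 of 10 lay above 0 in LPS. Rrp12, needed for late maturation and export, had a level of 4.85 with Ruvbl2 siRNA and 4.52 with control siRNA, a difference of 0.33. Utp20, a large protein of the early small-subunit precursor, differed by 0.30, Nop14, of the same precursor, by 0.29 and Heatr1, of a subcomplex that also acts on ribosomal DNA transcription, by 0.26. Smaller values came from Bysl and Nob1, late factors of which NOB1 is the nuclease that trims the small-subunit RNA, with 0.10 each, and from Wdr75 with 0.08. Rrp9, the protein specific to the U3 snoRNP, differed by 0.01. Below 0 were Wdr43 with -0.03 and Ddx10, an RNA helicase, with -0.09, both within 1 technical SD of 0.

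Of the 8 large-subunit factors, 7 lay above 0 in LPS. Nop16, an assembly factor, had a level of 4.23 with Ruvbl2 siRNA and 3.87 with control siRNA, a difference of 0.37. Nop2, a methyltransferase of large-subunit RNA, had 6.24 with Ruvbl2 siRNA and 5.91 with control siRNA, a difference of 0.33. Rrs1, which brings the 5S particle to the precursor in yeast, differed by 0.26. The 3 proteins of the PeBoW complex, which act together in processing, had smaller values of 0.18 for Bop1, 0.11 for Pes1 and 0.08 for Wdr12. Ddx21, an RNA helicase of the nucleolus, differed by 0.09, and Nvl, an ATPase that releases factors from the precursor, by -0.05.

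The RNA polymerase I genes were the most spread in LPS. Rrn3, the initiation factor that links the polymerase to its promoter, had a level of 3.58 with Ruvbl2 siRNA and 3.08 with control siRNA, a difference of 0.50, or 141% of control. Polr1a and Polr1b, the catalytic subunits, differed by 0.23 and 0.10. Tcof1, the nucleolar protein treacle, differed by 0.01, and Ubtf, the factor that binds ribosomal DNA, by -0.09. A second, dimmer probe of Ubtf gave 0.40, so its direction depended on the probe.

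**Figure D2:**
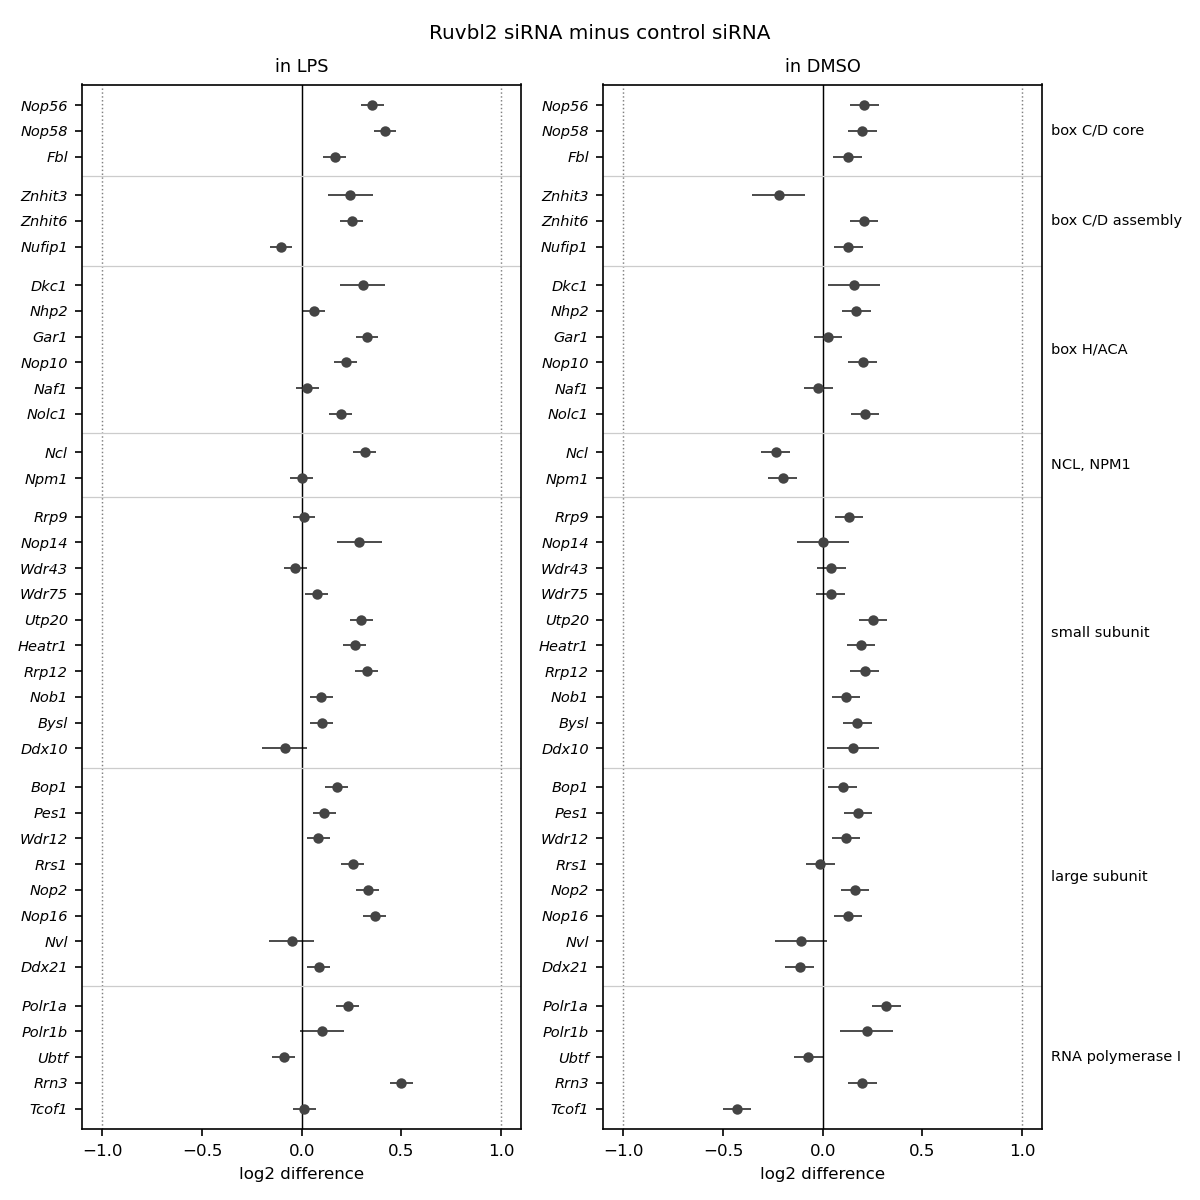
Log2 difference of each gene, Ruvbl2 siRNA minus control siRNA, in LPS and in DMSO, with a horizontal bar of 1 technical SD on each side and dotted lines at 1 and -1. In LPS, 31 of 37 points lie above 0 and none beyond a dotted line; in DMSO, Tcof1, Ncl, Znhit3 and Npm1 are the lowest.

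Rrn3 and Nop58 had the largest differences between siRNAs in LPS, and their promoters are shown here for the sequence at the start of each gene. The sequences are the 250 bases before the start from RefSeq (build GRCm38.p6), in lower case with motif matches in capitals, 5′ to 3′ on the gene's strand. The region of Rrn3 is chr16:13780449-13780698 (plus strand), where the capitals mark 2 copies of the E-box CACGTG, starting 215 and 48 bases before the gene's start. That of Nop58 is chr1:59684756-59685005 (plus strand), where the capitals mark the GC box GGGCGG, 110 bases before the start.
Rrn3: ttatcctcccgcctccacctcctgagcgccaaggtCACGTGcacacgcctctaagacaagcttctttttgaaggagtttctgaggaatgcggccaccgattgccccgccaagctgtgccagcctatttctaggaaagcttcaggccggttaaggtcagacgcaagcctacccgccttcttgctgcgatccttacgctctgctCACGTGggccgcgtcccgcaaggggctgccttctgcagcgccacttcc
Nop58: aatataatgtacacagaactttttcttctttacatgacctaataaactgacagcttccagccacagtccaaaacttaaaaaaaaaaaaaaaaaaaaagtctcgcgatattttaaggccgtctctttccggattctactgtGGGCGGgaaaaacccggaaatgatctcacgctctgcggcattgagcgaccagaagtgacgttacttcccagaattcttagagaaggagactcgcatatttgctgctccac
Of the 37 genes, 29 had a promoter in the table. Each was searched on both strands for 6 motifs, and the shares are given beside those of all 27025 promoters and of the 9997 whose genes were detected on all 4 arrays. CACGTG, the E-box that MYC and MAX bind, was in 2 of 29 (Rrn3 and Nop2), 6.90% against 6.86% of all and 9.78% of detected genes. The variant CACGCG was in 5 (17.2%, against 8.65% and 16.0%) and the variant CATGTG in 4 (13.8%, against 13.8% and 9.48%). CCGGAAG, a site of ETS factors, was in 7 (24.1%, against 7.83% and 15.7%). GGGCGG was in 16 (55.2%, against 35.4% and 60.8%) and CCAAT in 10 (34.5%, against 37.5% and 40.4%). These shares were not tested. A match is only a match of letters, and no match says only that they are not in this window.

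In DMSO, without LPS, the same genes gave smaller and less settled values. Of the 37, 28 lay above 0 with Ruvbl2 siRNA, against 57.6% of 13418 genes, with a median of 0.13 against 0.04 for all genes. None reached 0.5 in either direction, against 5.09% of all genes as higher and 3.54% as lower, and none reached 1, against 1.01% and 0.537%. By more than 2 technical SDs, 14 were higher and 3 lower, where 20.4% and 10% of all genes were. Bright genes as a class leaned the same way: of 1859 genes with a mean level between 4 and 6, 67.9% lay above 0, against 13 of 16 biogenesis genes. Between 6 and 8 it was 77.6% against 4 of 7, so there the biogenesis genes leaned less. Between 2 and 4 it was 60.2% against 7 of 8, and between 0 and 2 52.2% against 4 of 6.

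The highest values in DMSO were those of Polr1a, 4.21 with Ruvbl2 siRNA and 3.89 with control siRNA, a difference of 0.32, and of Utp20, 2.98 with Ruvbl2 siRNA and 2.73 with control siRNA, a difference of 0.25. All 10 small-subunit factors and all 3 listed core box C/D proteins lay above 0, Nop56 by 0.21, Nop58 by 0.20 and Fbl by 0.13. The other probe of Nop56 gave -0.17 and the other 3 of Nop58 -0.01 to -0.10, so all 4 lay on the other side of 0. The lowest was Tcof1, with 5.33 with Ruvbl2 siRNA and 5.76 with control siRNA, a difference of -0.43 that its second probe gave as well. Ncl had 6.83 with Ruvbl2 siRNA and 7.06 with control siRNA, a difference of -0.24, and Npm1 7.60 with Ruvbl2 siRNA and 7.80 with control siRNA, a difference of -0.20. All 3 probes of Npm1 were lower, with differences of -0.12 to -0.20, whereas the second probe of Ncl, with levels below 0, gave 0.43.

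Other settings changed the DMSO result. Centred on the spike-ins instead of the 75th percentile, 1 of the 37 lay above 0, their median was -0.17, and 4 were lower by 0.5 or more: Tcof1 (-0.73), Ncl (-0.54), Znhit3 (-0.52) and Npm1 (-0.50). That centring subtracts 1 value from all genes of an array, and it moved the median of all genes to -0.26 as well. It could hardly change the place of the biogenesis genes relative to all genes. In LPS the same centring gave 0.17 for the biogenesis genes and -0.00 for all genes.

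Probes of the same gene gave more alike values in LPS than in DMSO. The 16 genes with several probes had 22 probes besides the brightest, all well above background. In LPS, 18 of the 22 had the sign of the brightest probe and their median was 0.22, against 0.18 for the brightest probes. In DMSO, 8 of 22 had the same sign and the median was -0.07, against 0.08 for the brightest. Gar1 (-0.52), Dkc1 (-0.51) and Pes1 (-0.41) had second probes well below their brightest ones in DMSO. For genes with several probes, the direction in DMSO therefore rested on which probe was read.

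**Figure D3:**
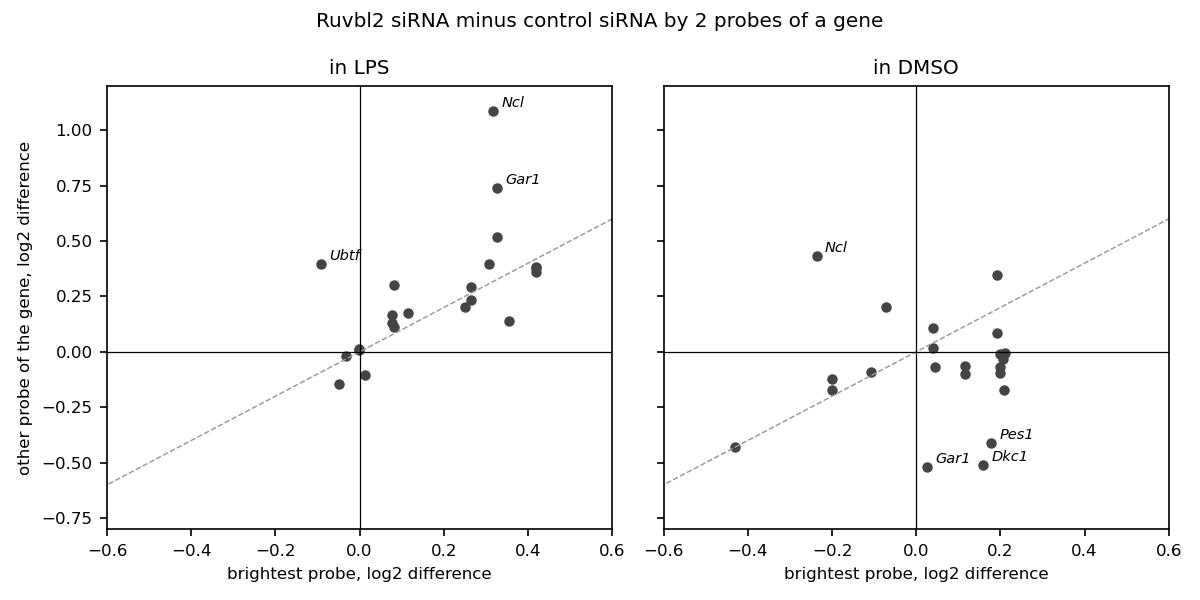
Log2 difference (Ruvbl2 siRNA minus control siRNA) of each of the 22 further probes, on the vertical axis, against that of the gene's brightest probe, in LPS and in DMSO; the dashed line marks equal values. In LPS 18 of 22 points share the sign of the brightest probe, and in DMSO 8 of 22.

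LPS against DMSO gave few large values among these genes when arrays were scaled on the 75th percentile. With Ruvbl2 siRNA, 30 of 37 lay above 0, against 46.8% of 13517 genes, and the median was 0.12 against -0.03. With spike-in centring all 37 lay above 0 in that comparison, with a median of 0.48 against 0.34 for all genes, and 17 reached 0.5. With control siRNA, 20 of 37 lay above 0, against 50% of 13512 genes, and the median was 0.04 against -0.00. By the brightest probe, none reached 1 with either siRNA. Of all genes, 4.14% were higher and 2.07% lower by as much with Ruvbl2 siRNA, and 5.74% and 2.21% with control siRNA. At 0.5 or more, 3 were higher with Ruvbl2 siRNA (11.1% of all genes) and 2 with control siRNA (14.6%), and 0 were lower with either (10.8% and 10.7%). By more than 2 technical SDs, 16 were higher and 3 lower with Ruvbl2 siRNA (24% and 26.3% of all genes), and 10 and 6 with control siRNA (28.5% and 25.3%). Other probes gave other values. Of 22 such probes, 19 had the sign of the brightest with Ruvbl2 siRNA and 15 with control siRNA. They lay up to 0.91 and 1.01 from it. Over the 11 settings, Ncl ran from 0.05 to 0.87 with Ruvbl2 siRNA and from -0.56 to 0.02 with control siRNA.

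With control siRNA the highest LPS values were those of small-subunit factors, while with Ruvbl2 siRNA Ddx21 and Znhit3 stood above them. Wdr43, a protein of the subcomplex that starts small-subunit assembly on the nascent RNA, had a level of 4.89 with LPS and 4.25 with DMSO under Ruvbl2 siRNA, and 4.92 with LPS and 4.20 with DMSO under control siRNA. Its LPS difference was 0.64 with Ruvbl2 siRNA and 0.72 with control siRNA, and its second probe gave 0.50 and 0.45. Rrp9, the U3 protein, had 3.28 with LPS and 2.79 with DMSO under Ruvbl2 siRNA, and 3.27 with LPS and 2.66 with DMSO under control siRNA. Both genes were higher with LPS under each siRNA and nearly level between siRNAs on the LPS arrays. All 10 small-subunit factors lay above 0 with Ruvbl2 siRNA and 8 of 10 with control siRNA, where Ddx10 (0.39), Bysl (0.23), Heatr1 (0.21) and Wdr75 (0.20) followed.

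Wdr43 and Rrp9 had the largest LPS differences with control siRNA, and their promoters are given in the same form as those of Rrn3 and Nop58. That of Wdr43 is chr17:71615965-71616214 (plus strand), where the capitals mark a GC box read on the other strand, 42 bases before the start. That of Rrp9 is chr9:106477059-106477308 (plus strand), where the capitals mark 2 copies of CCAAT, 126 and 85 bases before the start.
Wdr43: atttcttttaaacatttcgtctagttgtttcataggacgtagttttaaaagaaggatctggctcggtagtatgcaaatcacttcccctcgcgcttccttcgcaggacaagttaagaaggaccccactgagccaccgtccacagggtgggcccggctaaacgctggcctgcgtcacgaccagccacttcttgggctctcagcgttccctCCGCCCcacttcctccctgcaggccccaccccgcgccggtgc
Rrp9: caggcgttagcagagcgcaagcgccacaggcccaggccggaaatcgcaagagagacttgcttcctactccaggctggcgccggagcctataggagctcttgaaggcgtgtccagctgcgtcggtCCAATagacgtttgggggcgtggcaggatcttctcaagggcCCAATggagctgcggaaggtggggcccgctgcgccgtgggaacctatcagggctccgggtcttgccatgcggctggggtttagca
None of the motif matches in these 4 promoters overlapped, and neither Wdr43 nor Rrp9 held CACGTG in this window.

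Among the large-subunit factors, Ddx21 stood out under both siRNAs. Its level was 5.15 with LPS and 4.48 with DMSO under Ruvbl2 siRNA, a difference of 0.67, and 5.07 with LPS and 4.60 with DMSO under control siRNA, a difference of 0.47. Bop1 differed by 0.29 with Ruvbl2 siRNA and by 0.22 with control siRNA. Rrs1 differed by -0.03 with Ruvbl2 siRNA and by -0.29 with control siRNA. Pes1 and Wdr12 stayed within 0.12 of 0 by their brightest probes under either siRNA. Over the 11 settings, Pes1 ran from -0.16 to 0.25 with Ruvbl2 siRNA and from -0.20 to 0.02 with control siRNA. Wdr12 ran from -0.01 to 0.41 and from -0.03 to 0.14 in the same order.

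By their brightest probes, the listed core snoRNP proteins showed little or the other direction. All 3 listed core box C/D proteins lay below 0 with control siRNA, Nop56 at -0.06, Nop58 at -0.10 and Fbl at -0.15. With Ruvbl2 siRNA they differed by 0.08, 0.12 and -0.11 in the same order. Of the 6 box H/ACA genes, 3 lay above 0 with Ruvbl2 siRNA and 1 with control siRNA, and the lowest was Nop10, 4.78 with LPS and 5.12 with DMSO under Ruvbl2 siRNA and 4.56 with LPS and 4.92 with DMSO under control siRNA. Gar1 differed by 0.14 with Ruvbl2 siRNA and by -0.16 with control siRNA, and its second probe lay farther from 0 in each. Over the 11 settings it ran from 0.11 to 0.51 and from -0.40 to -0.09. Naf1 was lower under both siRNAs, at -0.18 with Ruvbl2 siRNA and -0.23 with control siRNA, and Nolc1 was higher, by 0.22 and 0.23. Znhit3 had 0.76 with LPS and 0.11 with DMSO under Ruvbl2 siRNA, and 0.52 with LPS and 0.33 with DMSO under control siRNA.

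**Figure D4:**
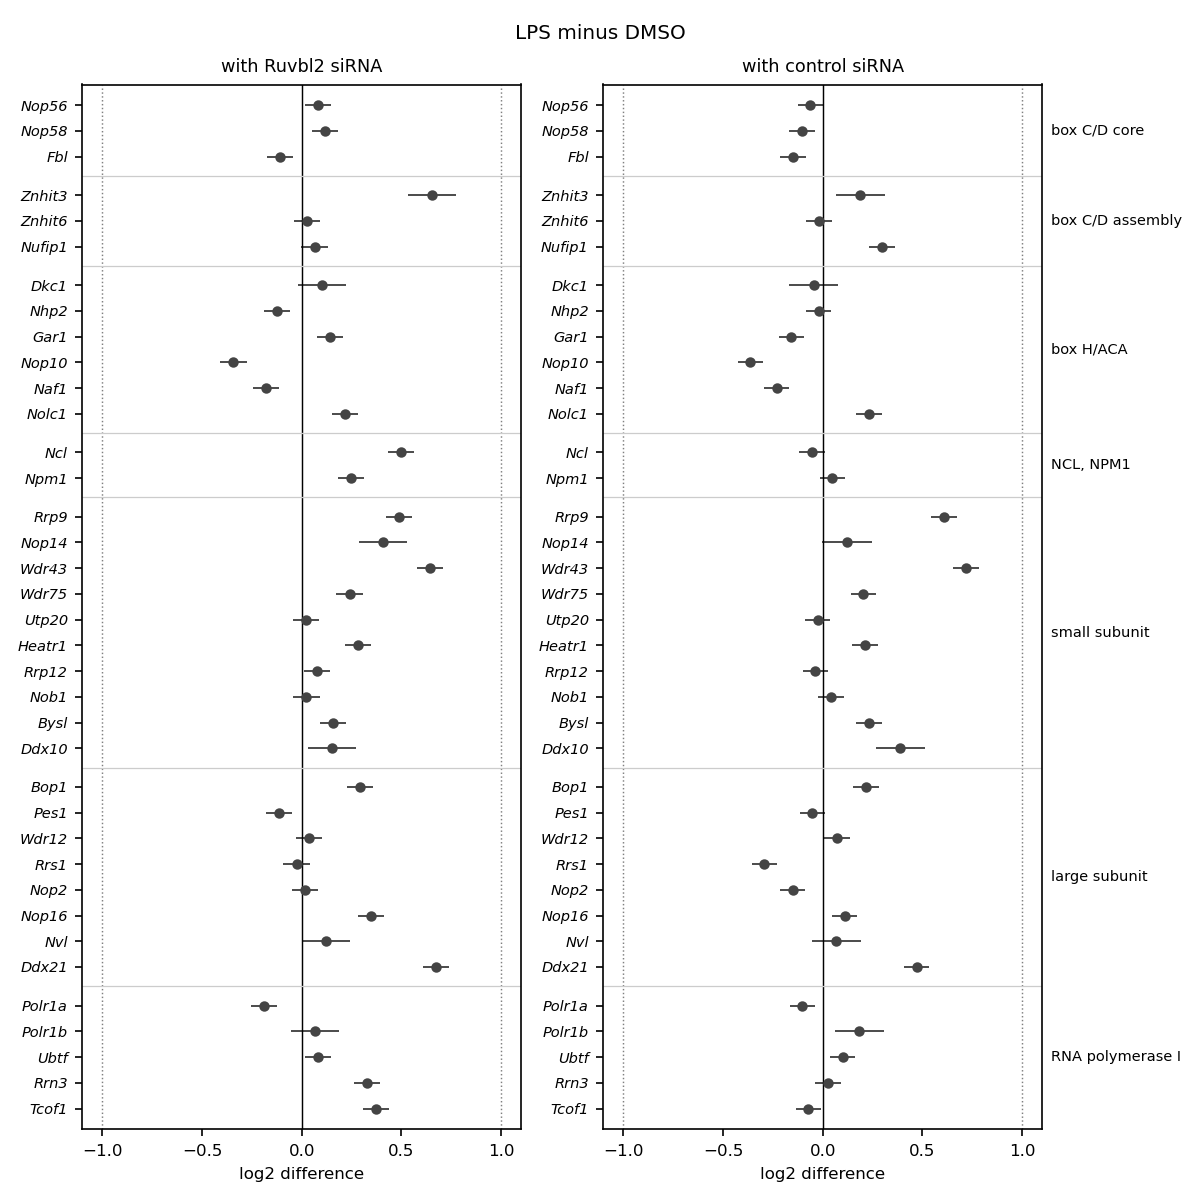
Log2 difference of each gene, LPS minus DMSO, with Ruvbl2 siRNA and with control siRNA, with a horizontal bar of 1 technical SD on each side and dotted lines at 1 and -1. Wdr43, Ddx21 and Rrp9 lie near or above 0.5 in both panels, and Nop10 is the lowest in both.

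Myc, whose product activates many genes of ribosome biogenesis, was higher with LPS under both siRNAs. It had a level of 0.15 with LPS and -1.92 with DMSO under Ruvbl2 siRNA, a difference of 2.07, and of 0.17 with LPS and -2.48 with DMSO under control siRNA, a difference of 2.65. Between siRNAs it differed by -0.02 in LPS and by 0.56 in DMSO, where spike-in centring gave 0.26 and normexp correction with quantile normalization 0.28. Beside that, none of the 37 genes reached 1 by its brightest probe under this scaling, and their LPS median with control siRNA was 0.04. With spike-in centring Ddx21, Znhit3 and Wdr43 reached it under Ruvbl2 siRNA.

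The difference of the LPS differences, Ruvbl2 siRNA minus control siRNA, gathers all 4 arrays, and the pairwise values above share those arrays with it. By their brightest probes, 24 of the 37 lay above 0, against 45% of 12471 genes, with a median of 0.05 against -0.03. Ncl alone reached 0.5, with 0.55 (4.42% of all genes were higher by as much), and 0 were lower by 0.5 (7.2%). None reached 1 by its brightest probe (0.513% of all genes as higher, 1.18% as lower), while 10 were higher and 1 lower by more than 2 technical SDs (11.7% and 17%). Znhit3 with 0.46 and Tcof1 with 0.44 followed, and the lowest was Ddx10 with -0.24. For Ncl, Tcof1 and Znhit3 the value came in part from the Ruvbl2 siRNA DMSO array, which held the lowest of their 4 levels. Spike-in centring, which acts on that array, raised the list's median to 0.35 and that of all genes to 0.26. The values also depended on the probe. Of the 22 other probes of 16 genes, 20 lay above 0, with a median of 0.27 against 0.09 for the brightest. Of these 22, 15 had the sign of the brightest, with a largest gap of 0.96. The second probe of Gar1 passed 1.

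A wider list of ribosome biogenesis genes gave like values in LPS. It holds 135 further factors of snoRNPs, both subunits, RNA polymerase I and the RNA exosome, of which 133 could be compared. Its snoRNP genes include Ruvbl2, the siRNA's target, with -0.40 in LPS, and Ruvbl1, with 0.14. With Ruvbl2 siRNA in LPS 104 of the 133 lay above 0, 78.2% against 50.8% of all genes, with a median of 0.14. By 0.5 or more 5 were higher and 0 lower, against 5.41% and 6.94% of all genes, and none reached 1. The highest were Tsr2, a chaperone of the ribosomal protein RPS26, with -1.27 with Ruvbl2 siRNA and -2.05 with control siRNA, and Wdr18, of a complex that matures the large subunit, with -0.06 with Ruvbl2 siRNA and -0.82 with control siRNA. By role, 34 of 44 small-subunit, 38 of 49 large-subunit, 13 of 16 RNA polymerase I, 7 of 9 snoRNP and 12 of 15 exosome genes lay above 0. In DMSO 80 of 133 did, 60.2% against 57.6% of all genes, with a median of 0.06.

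Ribosomal protein genes, whose products these factors assemble, lay mostly on the other side of 0 in LPS. Of 79, 12 lay above 0 and 67 below, with a median of -0.05, against 0.18 for the biogenesis genes. Of all genes 50.8% lay above 0, and of bright genes 56.6% at mean levels of 6 to 8 and 41.4% at 8 to 12. Among the 79, the extremes were Rpl37 with 0.54 and Rpl13a with -0.35. Quantile normalization brought the ribosomal protein median to -0.01 with 38 of 79 above 0 in LPS. In DMSO 66 of 79 lay above 0 with a median of 0.09, and that median was -0.22 with spike-in centring. Of all genes 57.6% lay above 0 in DMSO. Bright genes as a class leaned the same way there, with 77.6% above 0 at mean levels of 6 to 8 and 81.7% at 8 to 12.

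**Figure D5:**
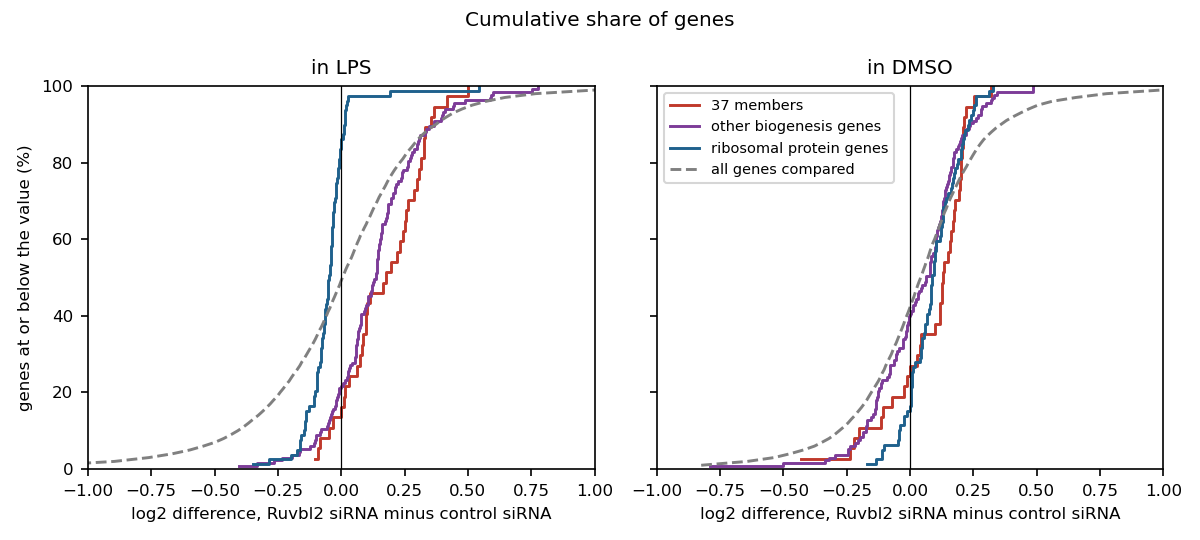
Cumulative share of genes, in percent, by log2 difference of Ruvbl2 siRNA minus control siRNA, in LPS and in DMSO, for the 37 genes, the 133 further biogenesis genes, the 79 ribosomal protein genes and all genes compared. The further biogenesis genes include Ruvbl2 and Ruvbl1. In LPS the curve of the 37 genes lies right of 0 for 31 of them, and that of the ribosomal protein genes left of 0 for 67 of 79.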

How the data were processed

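The deposited files hold, per the file headers, Agilent Feature Extraction 11.5.1.1 output of 1-colour arrays (the submitters' processing notes name version 11.0): an intensity per spot, background-subtracted and detrended within the array but not scaled between arrays. The deposited value table equals this intensity at all 62976 spots. Control spots were left out, spots of one probe averaged, and log2 values centred on each array's 75th percentile. Probes took symbols from RefSeq accessions (32994 named, 23611 not), and a gene its brightest probe. A gene was compared where the brighter array measured it well above background. Differences are described at 1 and 0.5, with no test, since each group has 1 array. The 37 genes and the other lists were chosen with earlier results of these data known. Genes named were all members, Ruvbl2, Ruvbl1, Myc and up to 2 genes per direction of each further list. Alternatives changed scaling, centring, probe choice and dim-probe filters. Python 3.11.15, R 4.3.3 and limma 3.58.1 were used; the comparison code was tested on simulated data.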

Additional observations from a re-analysis of the deposited data

Results flagged for a closer look

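For 2 of the 37 genes a difference had opposite signs in matching comparisons, each by more than 2 technical SDs; with 1 array per group the contrast between the signs was not tested. Gar1, the H/ACA core protein, differed between LPS and DMSO by 0.14 with Ruvbl2 siRNA and by -0.16 with control siRNA, and its second probe gave 0.62 and -0.63. Ncl, nucleolin, differed between Ruvbl2 siRNA and control siRNA by 0.32 in LPS and by -0.24 in DMSO, while its second, dimmer probe gave 1.09 and 0.43.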

How the results depend on the processing

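In all 11 settings 30 of the 37 genes were higher and 4 (Ddx10, Nufip1, Nvl, Wdr43) lower with Ruvbl2 siRNA in LPS, with medians of 0.16 to 0.18. In DMSO 1 gene was higher and 7 lower in every setting. Several settings could not change these genes. The deposited table holds the same intensity, and the dim-probe filters act on dimmer genes only. Both probe means are the same for the 37, and centring on detected probes or spike-ins adds a constant per array. The number of settings is therefore no measure of support. Spike-in centring moved most: for LPS against DMSO with Ruvbl2 siRNA to a median of 0.48, 17 genes at 0.5 and 3 at 1 (Ddx21, Znhit3, Wdr43), with control siRNA to 0.11, for the siRNAs in DMSO to -0.17 with 4 genes lower by 0.5, and for the difference of LPS differences to 0.35 with 9 genes. The count at 0.5 for the siRNAs in LPS, 1 with Rrn3 at 0.50, was 0 with quantile normalization, with normexp, with cyclic loess and with spike-in or detected-probe centring, and 3 with either mean over probes, which also gave 3 for the difference of LPS differences and 1 lower gene for LPS with control siRNA. Of 185 single-gene differences, 142 moved by more than 1 technical SD with spike-in centring, 46 with either probe mean, 40 with normexp and 17 each with quantile normalization and cyclic loess. The causes were not tested. Normexp used the median spot signal in place of the planned mean, a choice made after seeing the data. No paired analysis was possible because each group has 1 array, and for the same reason no array could be left out.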

Other observations

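Host genes of snoRNAs, whose introns carry the guide RNAs of these particles, also lay mostly above 0 in LPS. Of 14 compared, 11 lay above 0 with Ruvbl2 siRNA, against 50.8% of all genes, with a median of 0.26. In DMSO 10 of 14 did, against 57.6% of all genes, with a median of 0.15 that was -0.15 with spike-in centring. Snhg12 had a level of 2.54 with Ruvbl2 siRNA and 2.01 with control siRNA, a difference of 0.52, and Snhg15 one of 0.43. Snhg18 had -2.23 with Ruvbl2 siRNA and -1.22 with control siRNA, a difference of -1.01, the only one of the 14 to reach 1. For LPS against DMSO, 5 of 14 host genes lay above 0 with Ruvbl2 siRNA and 3 of 14 with control siRNA, with medians of -0.08 and -0.17, the first turning to 0.28 with spike-in centring. Snhg8 was the lowest with control siRNA, 4.89 with LPS and 5.44 with DMSO.

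Some further biogenesis genes were lower with LPS by more than any of the 37, each read by its brightest probe. Surf6, a nucleolar factor of the large subunit, had a level of 3.95 with LPS and 4.62 with DMSO under Ruvbl2 siRNA, a difference of -0.67, and of 3.36 with LPS and 4.54 with DMSO under control siRNA, a difference of -1.18. Tsr2 differed by -0.74 with Ruvbl2 siRNA and by -1.22 with control siRNA, and Wdr18 by -0.34 and -1.14. All 79 ribosomal protein genes lay below 0 for LPS against DMSO with Ruvbl2 siRNA, against 53.2% of all genes, and their median was -0.17. That median was -0.07 with quantile normalization and 0.20 with spike-in centring, so its direction depended on the scaling.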
